A study of Homo sapiens with 12 samples.

Results

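The MYC and MAX network was followed in human cells labelled HepG2 and exposed to acriflavine, across 10 genes found by looking up their symbols against the Ensembl identifiers of the count table. The 10 genes are MYC, MYCN, MYCL, MAX, MXD1, MXD3, MXD4, MXI1, MNT and MLX, out of 63152 genes in the table. Of these 10, 9 had enough counts to be among the 16839 genes tested, and MYCN had not. The 12 libraries came from 3 conditions with 4 replicate cultures each, all collected after 24 h: control without acriflavine (0 µM), acriflavine at 2.5 µM and acriflavine at 5 µM. Acriflavine, an acridine dye mixture, binds DNA and stops hypoxia-inducible factor subunits from pairing, and the series as titled concerns the epithelial-to-mesenchymal transition. HepG2 is a hepatoblastoma line. The sample descriptions call the cells HepG2S1, a derivative made resistant to sorafenib, so controls and treated cultures share that background. The control label gives no treatment, whereas the treatment protocol speaks of a DMSO vehicle. The replicates are called biological, and p-values measure the spread between these cultures of a single line.

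MYC proteins bind DNA only as a pair with MAX, at a short palindrome called the E-box, and activate genes of ribosome production, nucleotide synthesis, translation and metabolism. The MXD proteins, MXI1 and MNT compete for MAX at the same sites and repress through the SIN3 and histone deacetylase complex. MLX is a MAX-like protein that pairs with the glucose sensors MLXIP (MondoA) and MLXIPL (ChREBP) and with some of the MXD and MNT proteins. MYC mRNA and protein are both short-lived, and MYC is often raised in liver cancer.

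Library totals ran from 10733567 to 15116842 counts. The cells carried few hepatocyte transcripts: 9 of 16 hepatocyte markers had any count in control cultures, ALB (albumin) and AFP (alpha-fetoprotein) had 0 counts there, and nearly all of the summed marker level came from CPS1, a urea cycle enzyme. Some genes of other cell types were abundant in controls, with KRT7 (a keratin of bile duct cells) at 3612 CPM, KRT19 at 203.5 CPM and DCN (the fibroblast proteoglycan decorin) at 563 CPM. Others of the same lists were low or absent there. SOX9 stood at 1.73, EPCAM at 3.57 and PDGFRB at 4.51 CPM, and the collagen genes COL1A2 and COL3A1 had 0 counts. The few hepatocyte transcripts go against the hepatocyte-like label, and the markers of other cell types were mixed. The identity of the line is therefore in doubt here, and the label's name is used without a check of it. Acriflavine changed much of the transcriptome, which sets the scale for every count here. At 5 µM against control, 38.7% of all genes tested were higher and 39.4% lower, 78.2% in all, and for 70.8% the 4 and 4 values did not overlap. At 2.5 µM against control the shares were 30.7% higher, 28.5% lower, 59.1% in all and 50.5% without overlap. At 5 µM against 2.5 µM they were 33.6%, 34.8%, 68.4% and 62.1%. A member passing the test is therefore ordinary in these data, and the size and dose course of each change carry more than the call. In bulk RNA, fewer cells of a type and less RNA per cell cannot be told apart.

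Across the 9 members tested, 5 rose and 2 fell at 5 µM against control, with a median log2 fold change of 0.20 beside -0.01 for all genes tested. At 2.5 µM against control 4 rose and 3 fell, with a median of -0.04 beside 0.02. At 5 µM against 2.5 µM 5 rose and 2 fell, with a median of 0.26 beside -0.01. Groups did not overlap for 6, 6 and 7 members in these 3 comparisons. The comparisons share libraries and are given side by side only. MYCL, low in controls, could pass the count filter mainly through the treated groups, which favours its being counted as higher against control. All calls are from edgeR's quasi-likelihood test with Benjamini-Hochberg adjustment over all 16839 genes and a threshold of 0.05. Scaling by library size alone, without composition factors (TMM), moved the median of all genes at 5 µM against control to 0.12, and the members then split into 6 higher and 1 lower. With RLE or upper-quartile scaling the split was 5 higher and 1 lower.

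**Figure D1:**
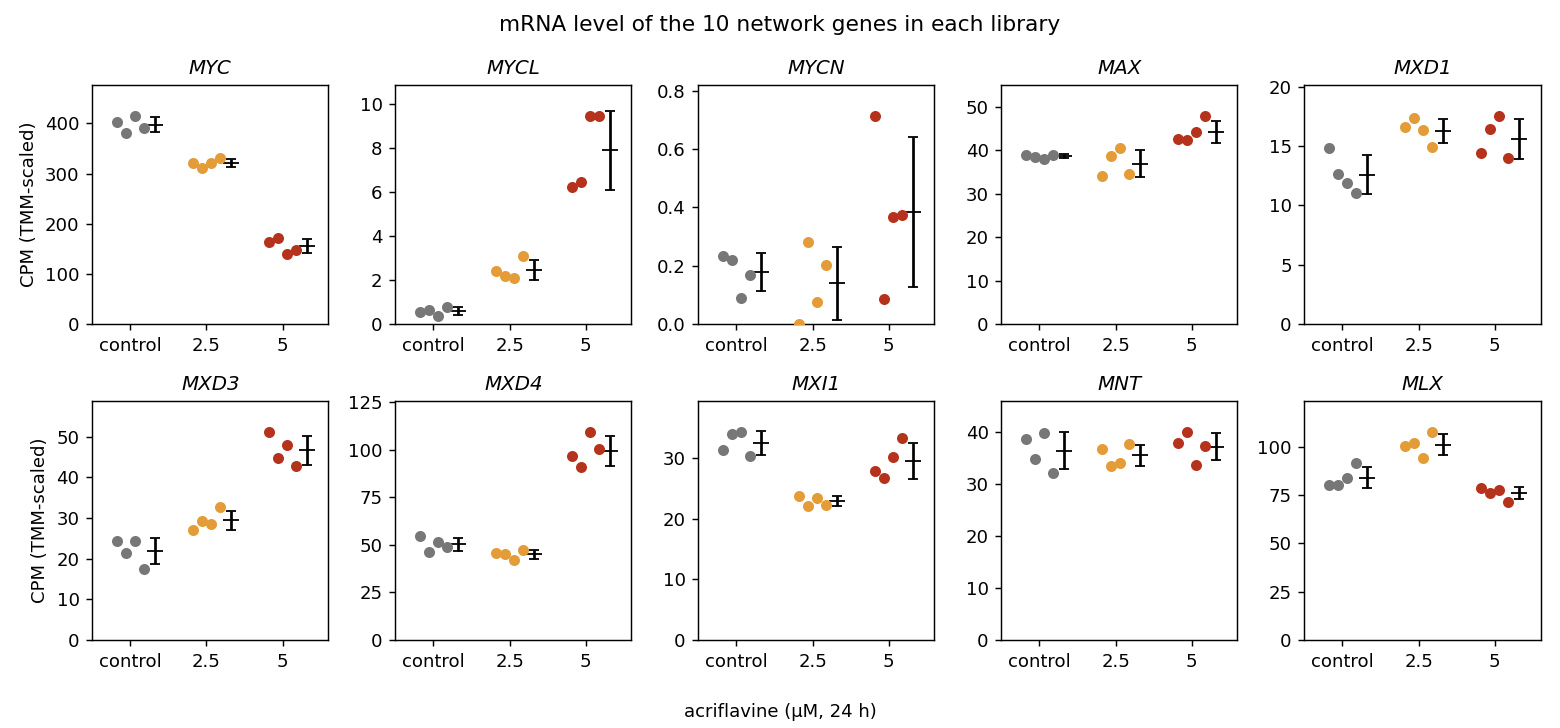
Levels of the 10 network genes in CPM (linear axes from 0, a scale of its own for each gene) by acriflavine dose in µM, with 1 point for each of the 12 libraries and the mean ± SD beside each dose. MYC stepped down to 155 CPM at 5 µM while MYCL climbed to 7.89 CPM, still far below it.

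MYC, the broadly used member of the activator family, fell at both doses, and most of the fall lay between 2.5 and 5 µM. In CPM, counts scaled to the size of their library, its levels were 403, 382, 415 and 391 in control cultures, 322, 311, 322 and 331 CPM at 2.5 µM, and 163, 171, 139 and 148 CPM at 5 µM. The 3 groups were fully separate, each dose lying below the one before it. MYC averaged 155 ± 14.3 CPM at 5 µM and 398 ± 14.5 CPM in controls (SD, n = 4 each), which is 2.56-fold lower (log2 fold change -1.36 ± 0.05 SE, adjusted p = 4.66e-22). At 2.5 µM it averaged 321 ± 7.95 CPM, 1.24-fold below control (-0.31 ± 0.05, adjusted p = 2.5e-06). Between the doses it was 2.07-fold lower at 5 µM than at 2.5 µM (-1.05 ± 0.05, adjusted p = 2.5e-18). Within the 5 µM group, replicates 3 and 4 held the lower MYC values and also the larger library totals, 13033748 and 15116842 counts against 10733567 and 11048875 for replicates 1 and 2, and the part of depth in this was not tested.

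MYCL, the family member first found in lung cancer, moved the opposite way and had the largest change of any member. Its levels were 0.547, 0.660, 0.358 and 0.762 CPM in control cultures, 2.42, 2.18, 2.08 and 3.09 CPM at 2.5 µM, and 6.24, 6.44, 9.45 and 9.44 CPM at 5 µM. The groups did not overlap at any dose, and the 2 highest values were replicates 3 and 4 at 5 µM, the libraries with the lowest MYC. MYCL averaged 7.89 ± 1.79 CPM at 5 µM and 0.582 ± 0.173 CPM in controls (SD, n = 4 each), 13.5-fold higher (log2 fold change 3.75 ± 0.23, adjusted p = 2.59e-16). At 2.5 µM it averaged 2.44 ± 0.455 CPM, 4.14-fold above control (2.05 ± 0.29, adjusted p = 2.59e-07), and from there it was 3.25-fold higher at 5 µM (1.702 ± 0.17, adjusted p = 7.39e-11). The control level rested on 29 counts over 4 libraries, against 136 at 2.5 µM and 425 at 5 µM, so the fold is less exact than that of MYC. Being so low in controls, MYCL could pass the count filter mainly through the treated groups. A gene that enters the test in this way is likely to be called higher against control, so the call itself adds little to the values. The exons of MYCL overlap an antisense transcript, AL033527.2, which had 95 counts in all 12 libraries together.

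MYCN, the family member of neuroblastoma and embryonic tissue, was barely detected. It had 3, 3, 1 and 2 counts in controls, 0, 4, 1 and 3 at 2.5 µM, and 8, 1, 5 and 6 at 5 µM. The sums were 9 counts in controls (exact Poisson 95% interval 4.12 to 17.1), 8 at 2.5 µM (3.45 to 15.8) and 20 at 5 µM (12.2 to 30.9). Single libraries of each dose overlapped, the intervals cover counting error only, and MYCN was too low to be tested.

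Per kilobase of exon, which allows levels to be compared between genes, MYC supplied nearly all of the family at every dose. MYC stood at 132.5 CPM per kilobase in controls, 107 at 2.5 µM and 51.8 at 5 µM. MYCL stood at 0.115, 0.483 and 1.56 CPM per kilobase at the same doses. As a share of the summed level of the family it made up 0.0873% ± 0.0281 in controls, 0.447% ± 0.0734 at 2.5 µM and 2.97% ± 0.897 at 5 µM (SD, n = 4 each). In summed RNA, the rise of MYCL was thus small beside the fall of MYC.

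MAX, the shared partner of the MYC proteins and of most of the repressors, changed little beside MYC and MYCL. It had 38.98, 38.48, 38.04 and 39.01 CPM in controls, 34.1, 38.8, 40.5 and 34.5 CPM at 2.5 µM, and 42.7, 42.3, 44.1 and 47.9 CPM at 5 µM. The 4 libraries at 5 µM lay above all others, whereas the 2.5 µM values spread on both sides of control. MAX was 0.20 ± 0.07 higher on the log2 scale at 5 µM against control (adjusted p = 0.00754) and 0.26 ± 0.07 higher against 2.5 µM (adjusted p = 0.000716). At 2.5 µM against control the difference was -0.07 ± 0.07 and did not pass (adjusted p = 0.416).

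The ratio of MYC counts to MAX counts within a library does not depend on how libraries are scaled. It was 10.4, 9.92, 10.9 and 10.0 in controls, 9.45, 8.03, 7.95 and 9.60 at 2.5 µM, and 3.81, 4.04, 3.16 and 3.10 at 5 µM. No value at either dose reached the lowest control value, and all 5 µM values lay below all 2.5 µM values. The mean log2 ratio was 1.55 lower at 5 µM than in controls (difference -1.55), 0.24 lower at 2.5 µM than in controls (-0.24) and 1.32 lower at 5 µM than at 2.5 µM (-1.32). Each gave p = 0.0286 in an exact 2-sided permutation test, the smallest p that 4 against 4 allows, and 0.0286 after adjustment over the 3 comparisons.

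Among the MAX-pairing repressors, MXD3 and MXD4 rose 2.13-fold and 1.98-fold at 5 µM by different courses. MXD3, found in proliferating cells in S phase, rose at both doses. Its levels were 24.3, 21.5, 24.3 and 17.4 CPM in controls, 27.1, 29.3, 28.5 and 32.7 CPM at 2.5 µM, and 51.1, 44.7, 47.8 and 42.9 CPM at 5 µM. The 3 groups did not overlap. MXD3 averaged 46.7 ± 3.63 CPM at 5 µM and 21.8 ± 3.28 CPM in controls, 2.13-fold higher (log2 fold change 1.09 ± 0.09, adjusted p = 3.04e-13). It was 0.43 ± 0.09 higher at 2.5 µM than in controls (adjusted p = 0.000103) and 0.66 ± 0.08 higher at 5 µM than at 2.5 µM (adjusted p = 1.68e-08). Exons of MXD3 overlap those of RAB24 on the same strand, which was 0.72 higher at 5 µM against control, and those of PRELID1 on the opposite strand, which differed by 0.06 (adjusted p = 0.272). With no strand setting of the counting in the sources used here, overlapping genes cannot be told apart.

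MXD4, known from differentiating cells, rose at the higher dose. Its levels were 54.5, 46.2, 51.5 and 49.2 CPM in controls, 45.6, 45.4, 41.9 and 47.6 CPM at 2.5 µM, and 96.9, 91.0, 109 and 101 CPM at 5 µM. All 5 µM libraries stood far above the rest, and the 2.5 µM values overlapped the lower control values. MXD4 averaged 99.5 ± 7.72 CPM at 5 µM and 50.3 ± 3.54 CPM in controls, 1.98-fold higher (0.99 ± 0.06, adjusted p = 5.15e-16). Against 2.5 µM it was 1.14 ± 0.06 higher (adjusted p = 4.34e-17). At 2.5 µM it was slightly lower than control (-0.16 ± 0.07, adjusted p = 0.0394). That last call was lost in 7 of 20 alternatives, among them those without control replicate 1 (adjusted p = 0.156) and without 2.5 µM replicate 1 (0.0596), 2 (0.0607) or 3 (0.131).

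MXD1, induced when myeloid and epithelial cells differentiate, was modestly higher at both doses. Its levels were 14.8, 12.6, 11.9 and 11 CPM in controls, 16.6, 17.3, 16.3 and 14.9 CPM at 2.5 µM, and 14.4, 16.4, 17.5 and 14.0 CPM at 5 µM. The 2.5 µM values all exceeded the controls, by a narrow margin, whereas control replicate 1 lay above 2 of the 5 µM values. The log2 fold change was 0.30 ± 0.10 at 5 µM (adjusted p = 0.00696) and 0.37 ± 0.10 at 2.5 µM (adjusted p = 0.00187), both against control, and -0.06 between the doses (adjusted p = 0.561). MXD1 shares exons on the same strand with SNRNP27, a splicing factor gene that was 0.81 higher at 5 µM and 0.74 higher at 2.5 µM against control, and its part in the MXD1 counts was not tested.

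MXI1, the fourth repressor of the MXD group and a known target of hypoxia-inducible factors, was lowest at the middle dose. Its levels were 31.3, 33.9, 34.3 and 30.3 CPM in controls, 23.8, 22.1, 23.4 and 22.3 CPM at 2.5 µM, and 27.9, 26.7, 30.1 and 33.4 CPM at 5 µM. The 2.5 µM libraries lay below all others, and the 5 µM values reached into the control range. MXI1 fell at 2.5 µM against control (-0.51 ± 0.08, adjusted p = 7.95e-07) and was higher at 5 µM than at 2.5 µM (0.38 ± 0.08, adjusted p = 5.83e-05). At 5 µM against control it did not pass (-0.13 ± 0.07, adjusted p = 0.11), although it did without 5 µM replicate 4 (-0.20, adjusted p = 0.0203). Over the 20 alternatives that adjusted p ran between 0.0203 and 0.956.

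MNT, the widely expressed MYC antagonist, was the member with no call in any comparison. Its levels were 38.8, 34.9, 39.9 and 32.2 CPM in controls, 36.7, 33.6, 34.0 and 37.8 CPM at 2.5 µM, and 38.0, 40.0, 33.7 and 37.3 CPM at 5 µM. The 3 groups overlapped throughout. The log2 fold changes were 0.03 at 5 µM against control (adjusted p = 0.712), -0.04 at 2.5 µM against control (0.697) and 0.07 at 5 µM against 2.5 µM (0.431). Scaling by library size alone gave 0.17 at 5 µM against control with an adjusted p of 0.04.

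**Figure D2:**
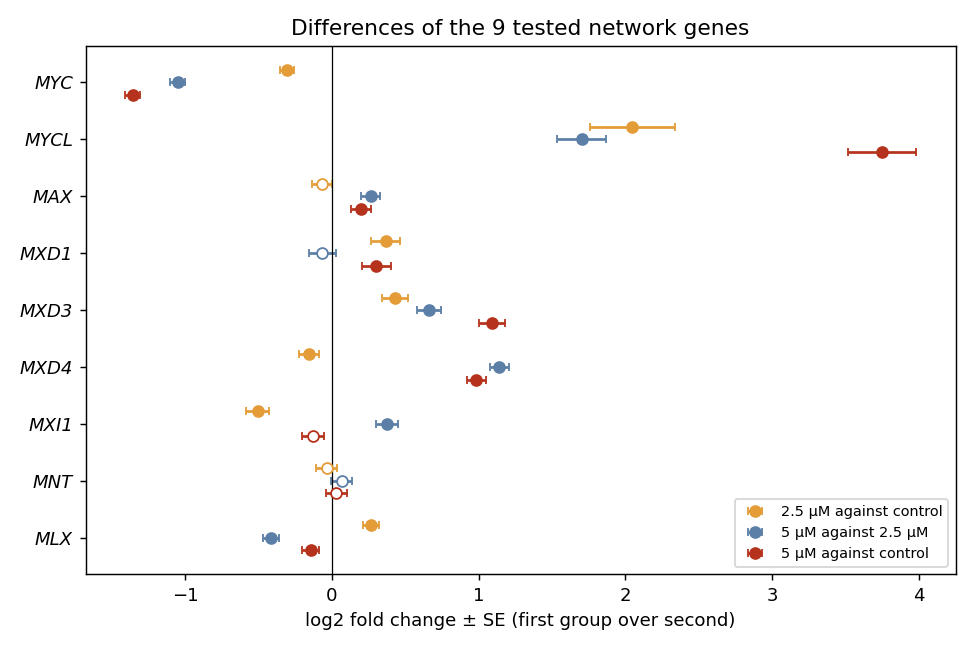
Log2 fold changes of the 9 members tested in the 3 comparisons (x axis, log2 scale), with bars of 1 standard error and open points where the test was not passed. MYCL at 3.75 and MYC at -1.36 for 5 µM against control are the extremes, and MNT is open in all 3 comparisons.

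MLX, which links the network to glucose sensing, was highest at the middle dose, the mirror of MXI1. Its levels were 80.5, 80.3, 84.0 and 91.9 CPM in controls, 101, 102, 94.4 and 108 CPM at 2.5 µM, and 78.7, 76.2, 77.9 and 71.7 CPM at 5 µM. The 3 groups did not overlap, the 5 µM libraries lying just under the lowest control. MLX rose at 2.5 µM against control (0.27 ± 0.05, adjusted p = 8.19e-05) and was lower at 5 µM than at 2.5 µM (-0.41 ± 0.05, adjusted p = 5.15e-08). At 5 µM against control the difference of -0.15 ± 0.06 passed (adjusted p = 0.0183), but not without control replicate 4 (0.0794), without 5 µM replicate 4 (0.0741), with DESeq2 (0.0781) or with RLE (0.0627), upper-quartile (0.105) or library size scaling (0.867). MLX exons overlap PSMC3IP on the opposite strand, which was 0.32 higher at 5 µM against control.

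Of the 3 further genes of the extended network, MGA and MLXIP fell and MLXIPL rose at 5 µM against control. MGA, a very large MAX-pairing repressor, averaged 104 ± 3.92 CPM at 5 µM and 138 ± 9.41 CPM in controls, a fall of 0.40 on the log2 scale (-0.40, adjusted p = 3.57e-08). MLXIP averaged 69.9 CPM at 5 µM and 81.4 CPM in controls (-0.22, adjusted p = 0.000471), and 72.4 CPM at 2.5 µM (-0.17 against control, adjusted p = 0.00768). The 5 µM call on MLXIP was lost with library size scaling (-0.08, adjusted p = 0.139). MLXIPL was near the limit of detection, with 2.34 CPM at 5 µM and 1.57 CPM in controls, and its rise (0.52 ± 0.24, adjusted p = 0.0424) was lost in 8 of 20 alternatives, with an adjusted p of up to 0.208 without control replicate 4.

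The order of the members by level changed with dose. Per kilobase, controls ran from MYC at 132.5 through MLX at 19.8, MAX at 8.72, MXD4 at 7.13, MXI1 at 7.05, MXD3 at 4.24, MNT at 4.17 and MXD1 at 1.98 down to MYCL at 0.115 and MYCN at 0.0685. Neighbours whose ranges overlapped were MXD4 and MXI1, MXD3 and MNT, and MYCL and MYCN. At 2.5 µM MXD3 moved above MXI1, with MXD4 at 6.39 and MXD3 at 5.71 overlapping each other, and MXI1 at 4.96 below them. At 5 µM MXD4 at 14.1 stood above MAX at 9.99, while MAX and MXD3 at 9.05 overlapped. The levels are CPM per kilobase of exon in the annotation, not of the transcripts these cells make.

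Summed per kilobase, the 5 repressors MXD1, MXD3, MXD4, MXI1 and MNT came to 24.6 ± 1.75 CPM in controls, 23.7 ± 0.669 CPM at 2.5 µM and 36.3 ± 1.39 CPM at 5 µM (SD, n = 4 each). Divided by the MYC level of the same library, the sum was 0.185 ± 0.00964 in controls, 0.221 ± 0.00495 at 2.5 µM and 0.707 ± 0.0905 at 5 µM. Per kilobase, MYC RNA still exceeded the 5 repressors together at every dose, an order that rests on the annotated exon lengths. In plain CPM it did not hold at 5 µM. There MYC averaged 155 CPM, beside MXD4 at 99.5, MXD3 at 46.7, MNT at 37.2, MXI1 at 29.5 and MXD1 at 15.6 CPM. These are RNA levels, and no protein was measured.

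**Figure D3:**
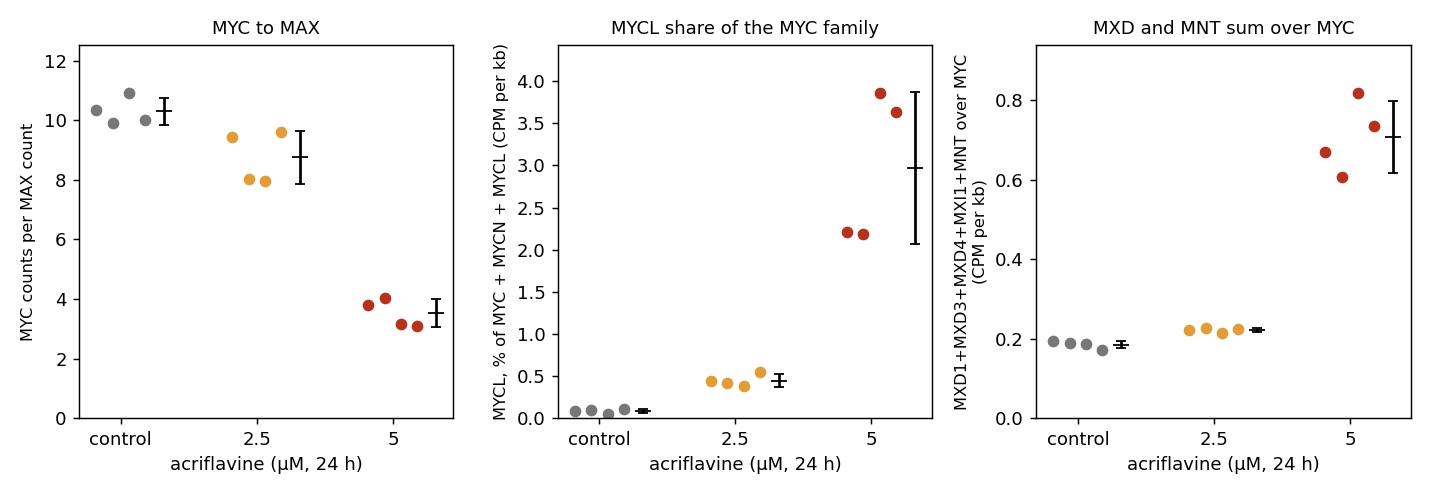
MYC counts per MAX count, the share of MYCL in the MYC family (percent) and the repressor sum over MYC (both from CPM per kilobase) in the 12 libraries, by acriflavine dose in µM, with the mean ± SD beside each dose. The 5 µM libraries stand apart in each panel, with 3.10 to 4.04 MYC counts per MAX count.

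Promoters of the members are shown because the network binds E-boxes and some of its genes carry them. A script searched the RefSeq windows of 250 bases before to 50 bases after each start (GRCh38.p14) for CACGTG, which reads the same on both strands. It lay in 7.26% of all 35116 windows and in 12.5% of the 10702 tested genes that had a window. Of the 9 members with a window, MXD4, MNT and MLX held it, at positions -238, -193 and -50 from the start. The 250 bases before the start follow for the 3 members with the largest rises at 5 µM, all on the minus strand: MYCL at chr1:39901918-39902167, MXD3 at chr5:177312753-177313002 and MXD4 at chr4:2262110-2262359. Shorter stretches of 50 bases follow for MNT (minus strand, chr17:2401226-2401275) and MLX (plus strand, chr17:42567028-42567077). Capitals mark the E-box.
MYCL: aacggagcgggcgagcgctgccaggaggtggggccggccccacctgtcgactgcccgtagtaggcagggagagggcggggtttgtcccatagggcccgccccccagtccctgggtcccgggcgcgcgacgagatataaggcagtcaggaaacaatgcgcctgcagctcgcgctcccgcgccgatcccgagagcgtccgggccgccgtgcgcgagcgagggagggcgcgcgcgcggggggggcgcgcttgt
MXD3: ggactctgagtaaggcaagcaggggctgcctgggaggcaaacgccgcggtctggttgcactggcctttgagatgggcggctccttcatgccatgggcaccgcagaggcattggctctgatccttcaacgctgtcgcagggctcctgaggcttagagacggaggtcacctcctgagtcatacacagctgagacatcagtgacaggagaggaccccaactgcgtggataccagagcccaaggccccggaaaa
MXD4: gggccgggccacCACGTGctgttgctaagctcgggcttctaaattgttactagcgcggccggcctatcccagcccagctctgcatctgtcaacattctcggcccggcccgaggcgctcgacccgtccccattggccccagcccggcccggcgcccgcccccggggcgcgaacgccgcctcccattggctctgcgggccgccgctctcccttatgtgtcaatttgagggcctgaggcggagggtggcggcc
MNT: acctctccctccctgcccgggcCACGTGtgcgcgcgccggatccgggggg
MLX: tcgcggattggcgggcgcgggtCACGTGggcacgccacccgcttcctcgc
The members with these letters were 1 with a rise at 5 µM (MXD4), 1 with no call (MNT) and 1 with a small fall (MLX). MYCL and MXD3, which rose, had no CACGTG in the window.

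The 2 transcripts tested beside MYC did not follow it. PVT1, a long non-coding RNA next to MYC, averaged 38.3 ± 4.13 CPM at 5 µM and 21.3 ± 2.43 CPM in controls (log2 fold change 0.83, adjusted p = 5.8e-11). At 2.5 µM it averaged 34.5 ± 1.56 CPM (0.69 against control, adjusted p = 1.15e-08), and the doses differed by 0.14 (adjusted p = 0.106). That last difference passed in 5 of 20 alternatives, among them those without 5 µM replicate 3 (adjusted p = 0.0499) or 4 (0.0306). CASC11, a non-coding gene that neighbours MYC, had 10 counts over the control libraries, 42 at 2.5 µM and 53 at 5 µM. It rose at 5 µM (2.26 ± 0.46, adjusted p = 4.47e-05) and at 2.5 µM (1.86) against control. With so few control counts, CASC11 could pass the count filter mainly through the 5 µM group, so its call of a rise adds little. PVT1, with 1060 counts over the control libraries, rose at doses at which MYC itself fell.

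The genes whose log2 CPM ran most like that of MYC over the 12 libraries, among 13839 compared, were TONSL (a replication fork factor, Pearson r = 0.998), NUDCD3 (0.998), the pseudogene SRP72P2 (0.996), ARNT (the HIF-1 beta subunit, 0.995) and NELFB (a subunit of a transcription pausing complex, 0.995). Those most like MYCL were GLIS3 (a zinc finger factor, 0.992), ALKBH1 (a demethylase, 0.990), CLCN4 (a chloride and proton exchanger, 0.990), SLC31A2 (a copper transporter, 0.990) and RTF1 (an elongation factor, 0.990). With 3 dose groups that separate widely, the libraries of a dose share most of this likeness, and the values are a description.

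Most genes listed as activated by MYC fell at 5 µM against control. Of 127 such genes in 5 lists, 125 were tested, 81 fell (64.8%, beside 39.4% of all genes) and 24 rose (19.2%, beside 38.7%), with a median log2 fold change of -0.46. At 2.5 µM against control 54 fell (43.2%, beside 28.5% of all genes) and 34 rose (27.2%, beside 30.7%), with a median of -0.09. At 5 µM against 2.5 µM 79 fell (63.2%, beside 34.8%) and 20 rose, with a median of -0.33. The share that rose there was below the 33.6% of all genes. Some members of these lists were known to have moved in these data when the lists were drawn up, so the counts are not independent evidence of a direction, and MYC's part in them was not tested.

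Nucleolar and ribosome assembly genes, 34 tested, had 20 lower, 7 higher and 7 not past the test at 5 µM against control, with a median of -0.42. The shares were 58.8% lower and 20.6% higher, beside 39.4% and 38.7% of all genes. GNL3 (nucleostemin) averaged 34.8 CPM at 5 µM and 112 CPM in controls (log2 fold change -1.696 ± 0.06, adjusted p = 1.12e-22), and was already lower at 2.5 µM (-0.63). NPM1 (nucleophosmin) averaged 227 ± 17.2 CPM at 5 µM and 560 ± 23.0 CPM in controls (-1.30 ± 0.05, adjusted p = 4.27e-22). DKC1 (dyskerin, the pseudouridine synthase) took another course: it was 1.22 lower at 5 µM (-1.22 ± 0.05, adjusted p = 9.4e-22) but slightly higher at 2.5 µM against control (0.18, adjusted p = 0.000958). The list as a whole was balanced at 2.5 µM against control, with 13 higher (38.2%, beside 30.7% of all genes), 12 lower (35.3%, beside 28.5%) and a median of 0.03. It moved between the doses, with 25 lower (73.5%, beside 34.8%) and 4 higher (11.8%, beside 33.6%).

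Nucleotide and polyamine synthesis genes were mostly lower at 5 µM against control. Of 22 tested, 18 fell (81.8%, beside 39.4% of all genes) and 2 rose (9.09%, beside 38.7%) there, with a median of -0.57. At 2.5 µM against control 14 fell (63.6%, beside 28.5%) and 3 rose (13.6%, beside 30.7%). SRM, which makes spermidine, averaged 53.9 ± 4.21 CPM at 5 µM and 169 ± 8.38 CPM in controls (-1.65 ± 0.06, adjusted p = 9.93e-23). ATIC, which carries out the last steps of purine synthesis, averaged 88.8 ± 4.37 CPM at 5 µM and 219 ± 11.2 CPM in controls (-1.30 ± 0.05, adjusted p = 6.53e-22). PAICS, an earlier enzyme of the same route, was 0.96 lower at 5 µM (-0.96 ± 0.04).

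Translation genes (25 tested) had 20 lower and 3 higher at 5 µM against control, with a median of -0.52, but 6 lower and 6 higher at 2.5 µM. At 5 µM the share lower was above the 39.4% of all genes, and the share higher was below their 38.7%. At 2.5 µM both shares were somewhat below those of all genes, 28.5% lower and 30.7% higher. IARS1, which loads isoleucine onto its tRNA, averaged 432 ± 20.2 CPM at 5 µM and 821 ± 26.3 CPM in controls (-0.93 ± 0.04, adjusted p = 1.19e-19). CCT5, a chaperonin subunit, was 0.87 lower at 5 µM (-0.87 ± 0.04) and differed by -0.09 at 2.5 µM (adjusted p = 0.082). EIF4EBP1, the repressor of cap-dependent initiation, had its whole fall by 2.5 µM: -1.20 ± 0.06 at 2.5 µM and -1.14 ± 0.06 at 5 µM against control, and 0.05 between the doses (adjusted p = 0.463).

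Carbon metabolism genes (24 tested) had 17 lower (70.8%, beside 39.4% of all genes) and 5 higher (20.8%, beside 38.7%) at 5 µM against control (median -0.66). At 2.5 µM the numbers were alike, 18 lower (75.0%, beside 28.5%) and 3 higher (12.5%, beside 30.7%), with a median of -0.33. Between the doses they split into 9 lower (37.5%, beside 34.8%) and 5 higher (20.8%, beside 33.6%), with a median of 0.01. SLC7A5, the leucine transporter, averaged 2884 ± 142 CPM in controls, 1079 ± 49.1 CPM at 2.5 µM and 1215 ± 39.9 CPM at 5 µM, so that it was lowest at the middle dose (0.17 ± 0.04 higher at 5 µM than at 2.5 µM, adjusted p = 0.00118). FASN, the fatty acid synthase and a target of both MYC and MLX partners, averaged 484 ± 33.8 CPM in controls, 149 ± 8.44 CPM at 2.5 µM and 148 ± 7.61 CPM at 5 µM, with a difference of -0.01 between the doses (adjusted p = 0.887). ENO1 (enolase) fell at each step, by 0.72 on the log2 scale at 2.5 µM (-0.72) and by a further 0.63 between the doses (-0.63).

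Cell cycle targets (20 tested) showed no common direction at 5 µM, with 7 higher, 6 lower and 7 not past the test. Both shares were somewhat below those of all genes, 38.7% higher and 39.4% lower, which were likewise split. CCNA2 (cyclin A) was 0.86 lower at 5 µM against control (-0.86 ± 0.05) and 0.02 higher at 2.5 µM (adjusted p = 0.763). MCM4, a subunit of the replicative helicase, fell at both doses (-0.49 at 2.5 µM, -0.83 at 5 µM). ID2, an inhibitor of differentiation factors that MYC can activate, rose 13.2-fold, averaging 90.3 ± 10.4 CPM at 5 µM and 6.86 ± 0.325 CPM in controls.

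Genes that MYC is known to repress, of which 16 of 20 were tested, had 10 higher and 6 lower at 5 µM against control, with a median of 0.63, and none failed to pass. The shares were 62.5% higher and 37.5% lower, beside 38.7% and 39.4% of all genes, so the lower share was near that of all genes. At 2.5 µM the split was also 10 higher and 6 lower, beside 30.7% and 28.5% of all genes. NDRG1, a stress and hypoxia gene, averaged 576 ± 21.2 CPM at 5 µM and 124 ± 7.29 CPM in controls, and CDKN1A (p21) averaged 664 ± 17.8 CPM at 5 µM and 211 ± 24.4 CPM in controls. CDKN1C (p57), another cyclin-dependent kinase inhibitor of the list, moved against these, with 144 ± 11.9 CPM at 5 µM and 771 ± 70.3 CPM in controls (-2.42 ± 0.06, adjusted p = 1.05e-23). Targets of the MLX partners, 8 of 11 tested, were split at 5 µM, with 3 higher (37.5%, beside 38.7%) and 4 lower (50.0%, beside 39.4%). ARRDC3, an arrestin gene of this list, was 1.62 lower (-1.62 ± 0.10), and KLF10, a glucose-responsive repressor, was 0.84 higher (0.84 ± 0.06).

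**Figure D4:**
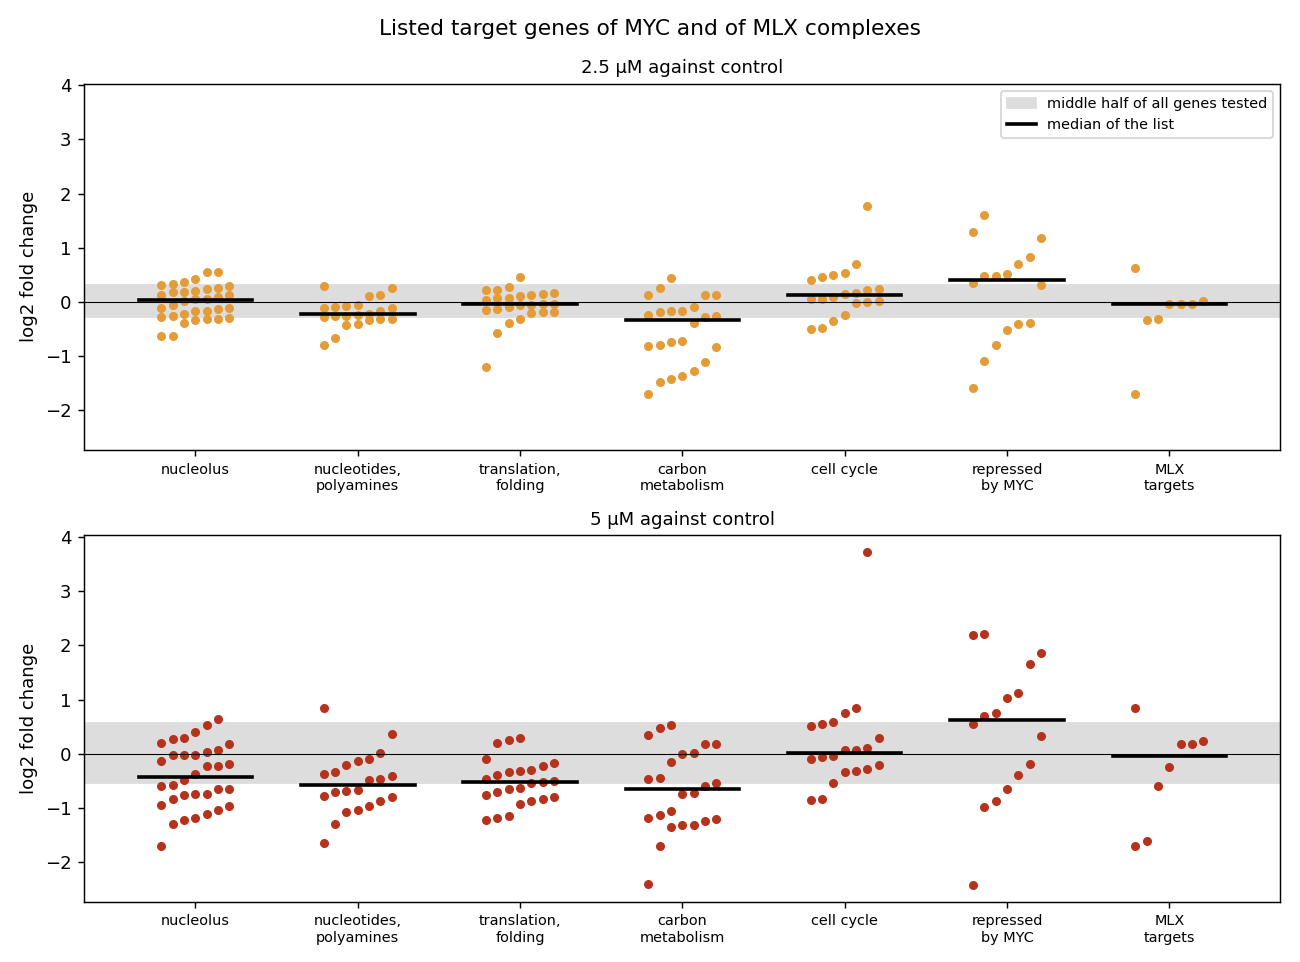
Log2 fold changes of the tested genes in each target list at 2.5 µM and at 5 µM against control (1 point a gene, bars at the list medians, log2 scale), with the middle 50% of all genes tested shaded. The nucleolar and translation medians lie near 0 at 2.5 µM and at -0.42 and -0.52 at 5 µM.

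E-boxes are often a reason to list a gene as activated by MYC. Of 107 activated genes with a window, 46 (43.0%) held CACGTG, beside 12.5% of tested genes with a window, and 2 of 13 MYC-repressed genes did. Among the 46, 32 fell (69.6%) and 4 rose at 5 µM against control, with a median of -0.50. Among the 61 without it, 36 fell (59.0%) and 20 rose, with a median of -0.32. Over all tested genes with a window the shares that fell were 43.3% of 1341 with the E-box and 39.2% of 9361 without. The stretches around the E-box are shown for genes named above that fell at 5 µM, from 4 routes: SRM (minus strand, chr1:11060190-11060239), ATIC (plus strand, chr2:215311991-215312040), IARS1 (minus strand, chr9:92293856-92293905) and SLC7A5 (minus strand, chr16:87869610-87869659), all from RefSeq on GRCh38.p14 with the E-box in capitals.
SRM: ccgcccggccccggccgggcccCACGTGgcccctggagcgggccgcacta
ATIC: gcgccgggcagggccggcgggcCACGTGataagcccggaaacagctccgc
IARS1: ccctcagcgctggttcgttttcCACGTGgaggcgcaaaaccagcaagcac
SLC7A5: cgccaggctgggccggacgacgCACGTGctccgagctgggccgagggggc
The E-box begins at -199 from the start in SRM, -46 in ATIC, -186 in IARS1 and -130 in SLC7A5. A match is a run of letters and was not tested as a binding site in these cells.

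At 5 µM against control, genes that work with the network proteins changed in both directions, as did all genes tested (38.7% higher and 39.4% lower). MYC cofactors (22 tested) had 11 higher (50.0%) and 8 lower (36.4%) at 5 µM against control, with a median of 0.12. EP400, the ATPase of the TIP60 complex that MYC recruits, averaged 63.2 ± 3.24 CPM at 5 µM and 140.3 ± 6.26 CPM in controls (-1.15 ± 0.05, adjusted p = 9.7e-20). CREBBP, an acetyltransferase, averaged 177 ± 3.40 CPM at 5 µM and 91.7 ± 5.41 CPM in controls (0.95 ± 0.05, adjusted p = 2.31e-18), and HCFC1, a MYC-binding host cell factor, was 0.84 higher (0.84 ± 0.05). Each of these 3 changed the same way at 2.5 µM.

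The corepressors of the MXD proteins (13 tested) had 6 higher (46.2%) and 5 lower (38.5%) at 5 µM against control, with a median of 0.01. Over all genes the shares were 38.7% and 39.4%. SAP18, of the SIN3 complex, averaged 95.3 ± 5.97 CPM at 5 µM and 38.8 ± 1.93 CPM in controls (1.30 ± 0.06, adjusted p = 6.51e-20), and BRMS1, of the same complex, was 0.97 higher (0.97 ± 0.06). RBBP4, a histone-binding subunit shared with other complexes, was 0.92 lower (-0.92 ± 0.05). Genes of MYC protein turnover (24 tested) had 9 higher (37.5%) and 13 lower (54.2%), with a median of -0.21. USP28, which removes ubiquitin from MYC, averaged 34.9 ± 1.54 CPM at 5 µM and 73.6 ± 2.54 CPM in controls (-1.07 ± 0.06, adjusted p = 2.39e-17). Ubiquitin ligase genes of the list went both ways. STUB1 (-1.097 ± 0.07) and HUWE1 (-0.64 ± 0.05) were lower, as were the substrate receptors TRPC4AP (-0.52) and SPOP (-0.34). FBXW7 (0.65), SKP2 (0.55), FBXL14 (0.85), FBXO28 (0.72) and TRIM32 (0.30) were higher. Apart from STUB1 and HUWE1, these ligase genes were named after their values were seen. Over all partner and regulator lists, 95 genes tested, 40 rose (42.1%, beside 38.7% of all genes) and 44 fell (46.3%, beside 39.4%). With library size scaling 47 rose and 36 fell, beside 7641 higher and 5464 lower of all 16839 genes. These counts are for 5 µM against control. At 2.5 µM against control, with TMM scaling, 48 of the 95 rose (50.5%, beside 30.7% of all genes) and 14 fell (14.7%, beside 28.5%).

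Markers of several cell types differed between the groups, and within the larger lists they went both ways. Summed hepatocyte markers ranged over 937 to 972 CPM at 5 µM and 2141 to 2245 CPM in controls, with 13 and 9 of 16 genes counted. That sum is nearly all CPS1 (945 CPM at 5 µM and 2185 CPM in controls). Of the 16 markers 5 were tested, and the 4 besides CPS1 were higher at 5 µM, at low levels. Among them were FGB (2.04 CPM at 5 µM and 0.343 CPM in controls) and TF (5.51 CPM at 5 µM and 0 counts in controls). Being so low in controls, these 4 could pass the count filter mainly through the 5 µM group, so their shared direction is no evidence of a rise of hepatocyte genes. Summed cholangiocyte markers (4 of 4 counted in every group) ranged over 1483 to 1780 CPM at 5 µM and 3622 to 4074 CPM in controls. KRT7 carried that sum (1580 CPM at 5 µM and 3612 CPM in controls), KRT19 was lower too (-1.99), and SOX9 (3.17) and EPCAM (0.73) were higher. Summed fibroblast markers ranged over 557 to 599 CPM at 5 µM and 619 to 769 CPM in controls (6 and 5 of 7 counted). DCN carried most of it (450 CPM at 5 µM and 563 CPM in controls) and LUM was lower too (-0.54), while PDGFRB (1.86) and COL1A1 (0.45) were higher. Endothelial markers reached 7.13 to 8.69 CPM at 5 µM and 0.169 to 0.537 CPM in controls (3 of 5 counted in both), and blood markers 3.63 to 4.47 CPM at 5 µM and 0.469 to 1.19 CPM in controls (3 and 4 of 5), while PECAM1 of the endothelial list and CD3E of the blood list had 0 counts in every group. The part of these lists in the changes of the network genes was not tested.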

How the data were processed

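Poly-A RNA of 12 cultures, 4 per condition, was sequenced with a strand-marking kit, per the labels' protocols. The deposited table holds raw counts per Ensembl gene as whole numbers, without normalization by the authors. Per the submitters' processing notes, which give no roles, the build was GRCh37 and the tools were edgeR 3.8.6, STAR 2.4.1d, featureCounts 1.4.6, cutadapt 1.7.1, SAMtools 1.1, Bowtie2 2.2.4, bedtools 2.17.0 and Cufflinks 2.1.1. The strand setting, annotation release and treatment of reads mapping to several places were not given in the sources used here.

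Symbols were found for 51989 of 63152 identifiers. Counts were filtered with filterByExpr (16839 genes left), scaled by TMM and tested with edgeR 4.0.16 in R 4.3.3 (robust glmQLFit, glmQLFTest), all 12 libraries in 1 fit with 9 residual degrees of freedom, and p-values were adjusted by Benjamini-Hochberg. SE is the absolute log2 fold change over the square root of F. CPM values use TMM-scaled library sizes and carry SD over 4 libraries. CPM per kilobase uses exon lengths of GENCODE 29 (GRCh38), not those of the counting. Coordinates are given for RefSeq promoter windows only. The steps were tested on simulated data.

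Named were all members, MGA, MLXIP and MLXIPL, the 3 genes of smallest p in each list and the 5 genes most like MYC and MYCL. The cell markers are given as list sums, with the genes that carry them for the hepatocyte, cholangiocyte and fibroblast lists. MYC on chromosome 8 has no sequence printed. The members and lists were chosen with earlier results of these data known. Of 304 listed symbols 300 matched. Alternatives were RLE, upper-quartile and library size scaling, no and stricter filters, DESeq2 1.42.0, 2 groups at a time, a replicate block and leaving out each library.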

Additional observations from a re-analysis of the deposited data

How the results depend on the processing

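Over 20 alternatives, the members that passed numbered 6 to 7 at 5 µM against control, 6 to 7 at 2.5 µM against control and 7 at 5 µM against 2.5 µM. The calls and directions of MYC, MYCL, MAX and MXD3, and those of MXD4 at 5 µM, were the same in each. Of 540 member values, 520 kept direction and call, 13 lost the call, 2 gained it and 5 turned sign, and for the other named genes the numbers were 1235 of 1255, 9, 8 and 3. At 5 µM against control the target lists gave 119 to 123 changed genes (121 in the fit reported, 34 higher and 87 lower) and the partner lists 82 to 87 (84 of 95 tested). The target count pools the 125 activated and 16 MYC-repressed genes tested, which are listed for opposite directions. Of all genes 78.2% changed. Values that turned sign were all near 0 and none passed the test. With library size scaling these were MXD1 at 5 µM against 2.5 µM (0.026), MXI1 at 5 µM against control (0.0049), MNT at 2.5 µM against control (0.0096) and MLXIP at 5 µM against 2.5 µM (0.039, and 0.0027 with upper-quartile scaling). MNT at 5 µM against control was -0.032 without control replicate 4 and -0.0092 without 5 µM replicate 2 (range -0.032 to 0.076 leaving out each library), and MLXIPL at 2.5 µM against control was 0.017 without control replicate 2 (range -0.43 to 0.017). MGA at 2.5 µM against control (-0.11, adjusted p = 0.0862) passed without control replicate 3 (-0.17) or without 2.5 µM replicate 3 (-0.13). The cause of these moves was not tested.

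Leaving out each library in turn, the log2 MYC to MAX ratio difference ran from -1.62 to -1.49 at 5 µM against control, -0.28 to -0.19 at 2.5 µM against control and -1.39 to -1.26 at 5 µM against 2.5 µM. With 3 against 4 the smallest exact p is 0.0571, so that p says nothing of stability.

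No sign of pairing by replicate number was seen. The deviations of same-numbered libraries correlated at -0.13 to 0.0745 over 12 pairs, and those of differently numbered libraries at -0.132 to 0.17. Such correlations do not show how the cultures were set up. With the replicate number as a block, 7 members passed in each comparison, 121 target genes changed, and the ratio differences were -1.55, -0.24 and -1.32, each with an exact permutation p of 0.125, the smallest that 4 pairs allow. Depth limits MYCN, MYCL in controls, CASC11 and MLXIPL most.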

Other observations

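Upstream regulators of MYC transcription (22 tested) had 11 higher and 8 lower at 5 µM against control, with a median log2 fold change of 0.13. The shares were 50.0% higher and 36.4% lower, beside 38.7% and 39.4% of all genes. CNBP, a nucleic acid binding protein of the MYC promoter, averaged 111 ± 5.17 CPM at 5 µM and 456 ± 24.2 CPM in controls (-2.04 ± 0.05, edgeR adjusted p = 1.83e-27). Its course was like that of MYC, with a small step at 2.5 µM against control (-0.32) and the larger step between the doses (-1.72). NFKB1 took more of its fall at the low dose (-1.33 at 2.5 µM and -2.15 at 5 µM, both against control), and STAT3 rose (0.75 ± 0.05).

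Proteins that bind or degrade MYC mRNA (15 of 16 tested) had 3 higher and 10 lower at 5 µM against control, with a median of -0.41. The shares were 20.0% higher and 66.7% lower, beside 38.7% and 39.4% of all genes. PABPC1, the cytoplasmic poly-A binding protein, averaged 251 ± 2.94 CPM at 5 µM and 502 ± 15.3 CPM in controls (-0.9985 ± 0.04). PCBP2, a poly-C binding protein, averaged 226 ± 10.4 CPM in controls, 220 ± 5.63 CPM at 2.5 µM and 114 ± 4.20 CPM at 5 µM, so that it passed at 5 µM (-0.99 ± 0.05) and not at 2.5 µM against control (-0.04, adjusted p = 0.458). CNOT1, the scaffold of the deadenylase complex, behaved alike, with -0.68 ± 0.04 at 5 µM and -0.06 at 2.5 µM (adjusted p = 0.229). The part of these genes in the level of MYC was not tested.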
